A study of Rattus norvegicus with 36 samples.

Results

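The liver of young adult male rats that had received no test compound was described from the 6 vehicle samples of a series of 36 liver arrays, chosen by their titles. The group had been given corn oil alone by gavage. Male Sprague Dawley rats, 7 weeks old at the start and fed the NTP-2000 diet, received 5 ml of corn oil per kg body weight on each of 5 days, and tissue of the left liver lobe was taken 1 day after the last dose. The animals were therefore handled and oil-dosed, not untreated. The other 30 samples, used here only as a comparison, came from rats given the flame retardant HCDBCO in the same oil at 5 doses, with 6 samples per dose: the lowest was 0.05 and the highest 541 mg/kg, and between them lay 0.54 mg/kg, 5.41 mg/kg and 54.1 mg/kg. The labels name no animal numbers, litters or batches, so the spreads and p-values given here rest on the spread between these samples, which may in part be technical.

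The liver makes most of the proteins of blood plasma, clears ammonia through the urea cycle, and stores and releases glucose and lipid. Hepatocytes make up most of its mass. Macrophages called Kupffer cells, sinusoidal endothelium, stellate cells and bile duct cells make up the rest. In male rats the pulsed release of growth hormone sets a male pattern of cytochrome P450 enzymes.

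Values are the authors' RMA signals, 1 per probe set, on the log2 scale, so that a difference of 1 is a doubling of signal. Across 31042 probe sets without the array's controls, 14217 genes were named, each represented by its probe set with the highest vehicle mean. How brightly a probe set shines also depends on its probes, so the orders below are orders of signal and not of RNA copies. The 6 vehicle arrays resembled each other, with correlations across probe sets between 0.9935 and 0.9959 over 15 pairs. Vehicle replicate 3 had the lowest lower quartile of the 6 (3.62) and the highest upper quartile (7.13).

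The brightest gene was Alb, which encodes albumin, the main protein of plasma. Its signals were 14.71 in replicates 1, 3, 5 and 6, 14.70 in replicate 2 and 14.73 in replicate 4. RMA gives all arrays nearly one distribution, which may hold the spread of the brightest probe sets small. The 30 brightest genes ran from Alb at 14.71 down to Hpx at 13.62, and the next gene, Selenop, stood at 13.61. Most of them encode secreted plasma proteins. Carriers among them were Ttr (14.25, thyroid hormone and retinol transport), Gc (14.21, vitamin D binding), Apoh (14.01), Ambp (14.00), Ahsg (13.98, fetuin-A), Rbp4 (13.96, retinol transport) and Hpx (13.62, heme binding).

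Apolipoproteins, which coat lipoprotein particles, were next to them, with Apoc3 at 14.25, Apoe at 14.11 and Apoc1 at 13.95. All 3 chains of fibrinogen, the clot protein, were among the 30, with Fgg at 14.07, Fga at 13.96 and Fgb at 13.91. Protease inhibitors were Serpina1 (14.15, alpha-1-antitrypsin), Serpina3l (13.96), Serpina3c (13.91), Itih3 (13.90) and Serpinc1 (13.63, antithrombin). Hp, the hemoglobin binder haptoglobin, stood at 14.11, and C3, the central complement protein, at 14.04. Rup2, annotated as a urinary protein, stood at 14.04 on a probe set that can also detect related transcripts.

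The other genes of the brightest 30 encode enzymes, an intracellular carrier and a cell surface protein. Fabp1, the fatty acid carrier of hepatocytes, had a mean of 13.97, Mgst1, a microsomal glutathione transferase, 13.88, and Car3, a carbonic anhydrase, 13.87. The P450 enzymes Cyp3a2 and Cyp2e1 had 13.82 and 13.66. COX2 (14.13) and COX1 (13.85) encode mitochondrial subunits of cytochrome oxidase, and B2m (13.68) the light chain of class I antigen presentation. Of the 100 brightest probe sets 82 carried a single gene symbol; 11 with several symbols and 7 without any are not named here. A mean above 12 was reached by 278 genes, above 10 by 1176 and above 8 by 3718.

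The promoters of the 30 brightest genes held few CpG dinucleotides, which was not so for bright genes at large. RefSeq promoters, from 250 bases before to 50 after the gene's start on GRCr8, were matched for 11700 of the 14217 genes. The median CpG count in those 300 bases was 19 for all genes and 4 for the 24 of the 30 brightest that had a promoter. The exceptions were Rbp4 with 40 and B2m with 18, against 0 to 9 in the others. For all genes above the upper quartile of signal the median was 21, and for those below the lower quartile it was 10. For the 30 least variable genes, described further on, the median was 24 over 26 promoters. The 250 bases before the start of Alb and of Sdhd show the contrast between genes that both varied little between animals. CpG dinucleotides are in capitals, 2 in Alb and 20 in Sdhd, a subunit of succinate dehydrogenase.
Alb, chr14:17906980-17907229, minus strand: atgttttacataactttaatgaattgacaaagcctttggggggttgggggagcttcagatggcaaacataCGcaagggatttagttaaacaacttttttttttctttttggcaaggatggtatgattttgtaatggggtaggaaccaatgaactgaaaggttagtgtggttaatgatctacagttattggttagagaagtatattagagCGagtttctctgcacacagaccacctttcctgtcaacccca
Sdhd, chr8:59850642-59850891, minus strand: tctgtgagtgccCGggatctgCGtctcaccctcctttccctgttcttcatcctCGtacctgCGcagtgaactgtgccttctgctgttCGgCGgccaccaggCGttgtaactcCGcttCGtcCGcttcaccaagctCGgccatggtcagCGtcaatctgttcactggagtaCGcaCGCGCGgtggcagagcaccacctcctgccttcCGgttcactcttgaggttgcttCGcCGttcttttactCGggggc

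The letters TATAAA, read on the gene's strand and starting 40 to 20 bases before the start, stood in 9 of 81 promoters of the 100 brightest genes (11.1%). Among all genes the share was 220 of 11700 (1.88%), among those above the upper quartile of signal 1.59%, among those below the lower quartile 3.69%, and among all 27457 promoters of the table it was 1.52%. Fabp1 and Itih3 were those among the 30 brightest that held it. Among the 30 most variable genes it stood in 6 of 23 promoters (26.1%), those of Mt2A, Abca1, Nr0b2, Inmt, Fgf21 and Ccn1, and among the 30 least variable in 0 of 26. For the 100 most variable the share was 8 of 78 (10.3%), near that of the 100 brightest. For the 100 least variable it was 1 of 87 (1.15%). These shares describe genes chosen by their signal and carry no test.

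Gene lists by function, cell type and tissue were placed by signal, as the percentile of each gene's mean among the 14217 genes. Plasma protein lists were among the brightest. The 17 measured plasma carriers had a median percentile of 99.8, and 14 of them were among the 100 brightest genes. Of the other carriers, Serpina6 (12.36) and Serpina7 (9.96) were still above the upper quartile of all genes (8.09), and A1bg, at 4.01, was below the lower quartile of all genes (4.51). Protease inhibitors (median percentile 99.1), apolipoproteins (98.8), coagulation proteins (98.7) and complement proteins (98.2) were also high, and their members lay above the upper quartile in 16 of 17, 14 of 15, 13 of 14 and 16 of 18 cases. Xenobiotic P450 enzymes had a median of 98.9 and ribosomal proteins one of 98.6, in the same range. Acute phase proteins had a median of 98.9, with 7 of 9 above the upper quartile. Hp, Apcs (12.95), Hamp (12.83, the iron hormone hepcidin) and Crp (12.69) were bright. A2m, which rises in rat inflammation, was also above the upper quartile, at 9.17. Lcn2, which rises there too, stood at 5.88, and Reg3b at 3.70.

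**Figure D1:**
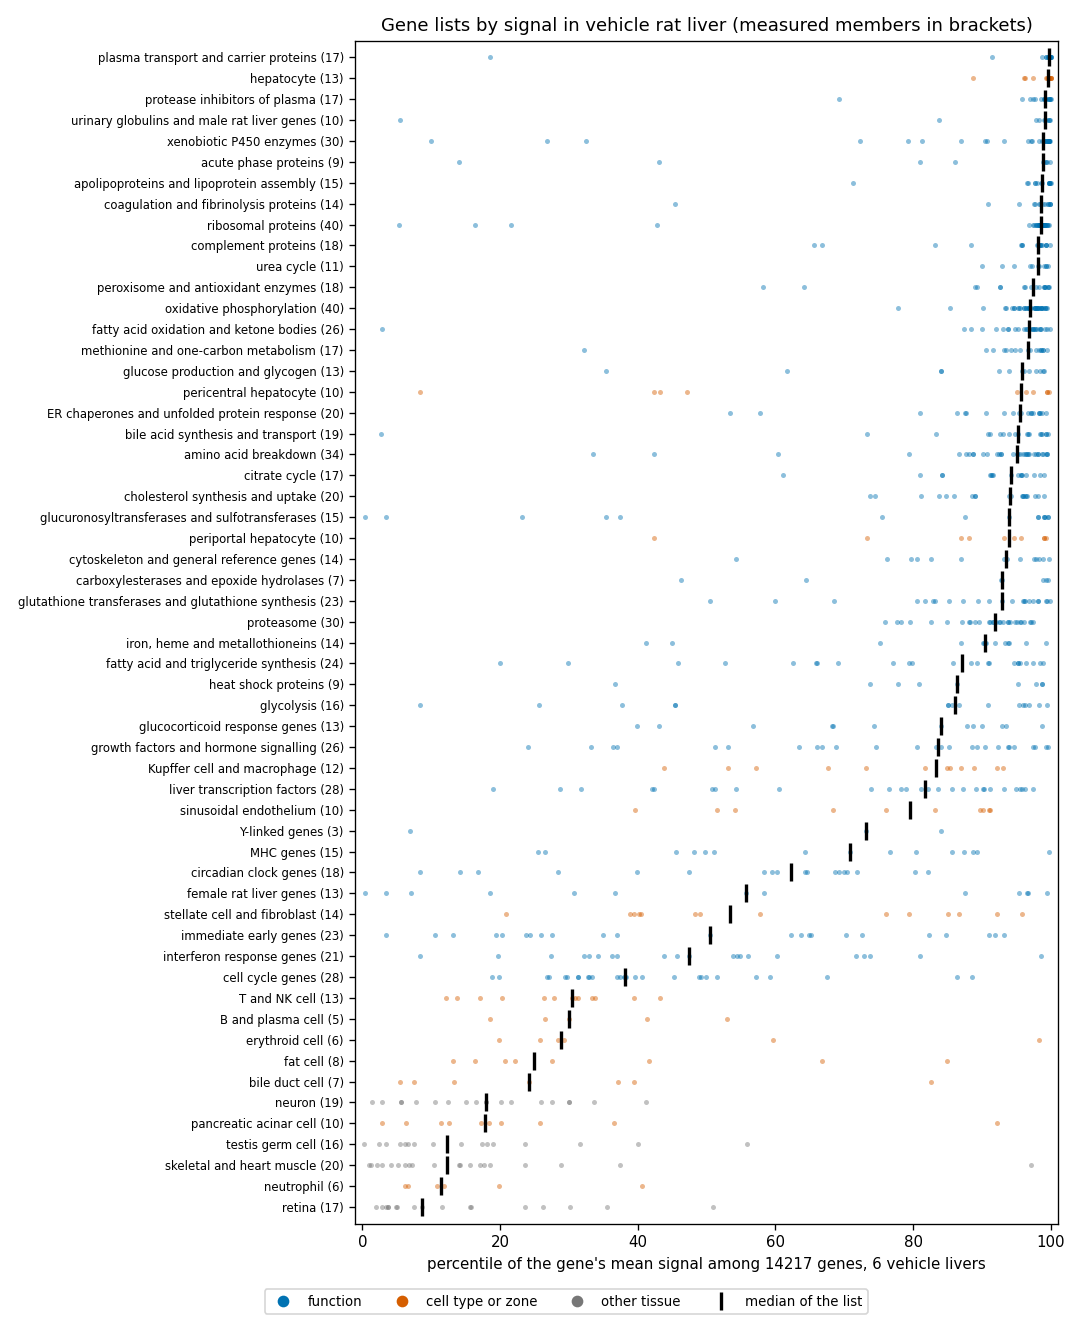
Percentile of each measured list member's mean signal over the 6 vehicle livers among 14217 genes (x axis), with 1 line per list and a black bar at the list's median. Plasma carriers have a median of 99.8 and retina genes one of 8.7, and Myh1 lies apart from the other muscle genes.

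Metabolic lists were bright nearly throughout. All 11 urea cycle genes, led by Cps1 (13.25), Arg1 (12.88), Glud1 (12.85) and Ass1 (12.65), and all 40 genes of oxidative phosphorylation, led by Atp5f1b (12.97) and Cox7b (12.80), were above the upper quartile. So were all 30 proteasome genes, from Psma3 at 8.15 to Psmb4 at 11.69. Of 26 genes of fatty acid oxidation and ketone body formation 25 were above it, and the other, Acot1, had 2.80. Of 40 genes of ribosomal proteins and elongation factors 36 were above it, led by Eef1a1 (13.46). Rpl28 had 3.04, and ribosomal proteins have many processed pseudogenes, so single probe sets of this list are uncertain. Glycolysis had a lower median percentile (86.2), with Ldha between 12.96 and 13.03 over the 6 livers and Hk2, the hexokinase of muscle and fat, at 3.28.

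Male-pattern genes were bright. Of 10 measured genes of the male rat liver list 9 were above the upper quartile, among them Cyp2c11 (13.52), Cyp2c13 (13.51) and Rgn (13.07), and Akr1b7 was dim (3.04). The 13 measured genes of the female list had a median percentile of 55.8, and ranged from Sult2a1 at 2.38 to Cyp2c7 at 13.08. Cyp2c12, which is characteristic of female rat liver, had 11.32 ± 0.18 (SD, n = 6). The Cyp2c genes are close paralogs and their probe sets may share signal, which was not tested. The Y-linked genes Eif2s3y (8.93) and Uty (7.95) were above the median of all probe sets (5.10) in all 6 livers, while Sry, the testis-determining gene, stood at 3.16.

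Regulatory and inducible lists ranged from the upper part of the scale to below its middle. Liver transcription factors had a median percentile of 81.7, led by Hnf4a (11.69). Growth factor and hormone genes stood at 83.7, led by Igf1 (13.27), circulating insulin-like growth factor 1, and followed by Hamp and the growth hormone receptor Ghr (11.83). Circadian clock genes stood at 62.3, immediate early genes at 50.5, with Crem at 10.31 and Fosb at 2.87, interferon response genes at 47.5 and cell cycle genes at 38.1.

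Markers of the labelled tissue were present. All 13 hepatocyte markers were above the upper quartile, with a median percentile of 99.6. Pericentral markers were split between Cyp2e1, Rgn and Cyp1a2 (13.01) and the dim Lgr5 (3.27). Kupffer cell and macrophage markers had a median percentile of 83.4, with Lyz2 at 10.25 and Clec4f, a Kupffer cell lectin, at 10.08. Sinusoidal endothelium stood at 79.6, with Dnase1l3 at 9.89 and Lyve1 at 9.87, and stellate cells and fibroblasts at 53.4, with Col3a1 at 11.02. Bile duct markers were dim except Epcam (8.76), with Krt19 at 5.45 and Cftr at 3.05, and so were those of T and NK cells (median percentile 30.5), B and plasma cells (30.1) and neutrophils (11.4). In bulk tissue, fewer cells of a type and less RNA per cell cannot be told apart.

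Hbb, a chain of hemoglobin, had 12.18 ± 0.14 (SD, n = 6), while Alas2, the heme enzyme of red cell precursors, had 7.01. The amount of blood in the tissue was not measured. Lists of tissues that were not sampled were low, with medians of 17.9 for neurons, 12.3 for testis, 12.2 for muscle and 8.7 for retina. Pancreatic acinar genes (17.9) and the neutrophil list lay in the same range. A few members stood far from their list. The muscle myosin Myh1 had 11.54 while the next muscle gene, Casq2, had 5.46, and the acinar elastase Cela1 had 10.07 while Amy2a3 had 2.81. What those probe sets detect was not tested.

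Spread between animals was smallest among bright genes. For the brightest of them the processing may hold it small, which was not tested. Among the 30 brightest the SD was 0.0094 for Alb and 0.10 for Car3 and COX1. The median SD was 0.10 for genes above the upper quartile of signal, 0.13 between the median and the upper quartile, 0.14 between the lower quartile and the median and 0.13 below the lower quartile, and 0.06 for the 100 brightest. Genes were ranked by SD only among the 9550 whose mean exceeded 5.10. Their median SD was 0.12, with the middle 90% between 0.05 and 0.30. The SDs chose the genes named next, and the pooled within-group SD of the 30 dosed livers, which took no part in the choice, is set beside them.

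**Figure D2:**
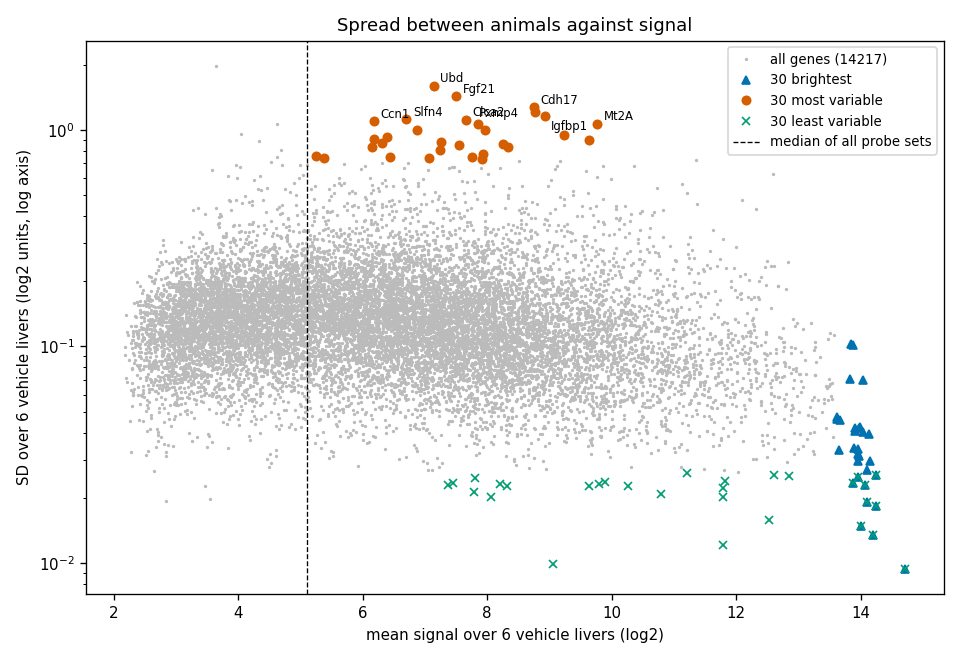
SD over the 6 vehicle livers (log axis) against mean signal (log2), with 1 point per gene and the 3 ranked sets marked. The 30 most variable genes have SDs from 0.73 to 1.60 and the 30 least variable from 0.0094 to 0.026, and 9 of the latter are also among the 30 brightest.

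The most variable of the ranked genes was Ubd, which encodes the ubiquitin-like protein FAT10. Its signals were 7.95, 5.07, 8.14, 8.76, 5.18 and 7.73 in replicates 1 to 6 (SD 1.60). Replicates 2 and 5 were low and the other 4 high, with nothing between. Over all 36 livers no value fell between 5.24 and 7.63, with 11 below and 25 above. Similar gaps stood in Pxmp4, a peroxisomal membrane protein, where 4 livers were at or below 7.19 and 32 at or above 8.50, and in Abca1, the cholesterol exporter, where 5 were at or below 8.31 and 31 at or above 9.47. Vehicle replicate 1 was the low one for Pxmp4 (6.53 against 8.50 to 9.82), and replicates 3 and 4 for Abca1 (8.18 and 7.93 against 9.56 to 10.27). Cdh17, a cadherin, and Clca2 were both low in replicate 2, at 6.28 and 5.60, against 8.86 to 9.87 and 7.50 to 8.63 in the others.

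Abhd3, a phospholipase of the alpha/beta hydrolase family, was chosen after its values were seen, since its mean of 3.65 lay below the limit for ranking. Vehicle replicate 4 had 7.67 and the other 5 had 2.69 to 3.07 (SD 1.97). Over the 36 livers, 26 lay at or below 3.19 and 10 at or above 6.71, with none between.

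Replicate 4 had the highest value of Fgf21, Chac1 and Ddit4. Fgf21, a hormone of fasting and nutrient stress, had 6.50, 6.33, 8.03, 10.16, 7.10 and 6.88 in replicates 1 to 6 (SD 1.43). Chac1, which degrades glutathione under amino acid stress, was 8.23 in replicate 4 and 5.82 to 6.45 in the others. Ddit4, an inhibitor of mTOR signalling, was 8.98 in replicate 4 and 6.47 to 7.12 in the others. Trib3, a pseudokinase induced by the transcription factor ATF4, was high in replicates 3 (8.29) and 4 (7.67) and lay between 5.56 and 7.02 in the others. Ddit3, a stress transcription factor and the dimmest member of the endoplasmic reticulum list, was not high in replicate 4 (6.56, range 6.24 to 7.00).

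The promoters of Fgf21, Trib3 and Chac1 each hold 1 match to TGATGNAA, while those of Ddit4, Ddit3, Asns and Atf5 hold none. The promoter of the interferon gene Ifi27 holds this sequence too. This sequence is the core of the element bound by ATF4 and C/EBP proteins in amino acid stress. It stood in 3 of the 23 promoters of the 30 most variable genes, in 2.20% of all genes' promoters and in 3.82% of all promoters in the table, searched on both strands of 300 bases. In Fgf21, Trib3 and Chac1 it begins 143, 21 and 167 bases before the start, on the strand opposite to the gene. It is in capitals in the 250 bases shown.
Fgf21, chr1:105221377-105221626, minus strand: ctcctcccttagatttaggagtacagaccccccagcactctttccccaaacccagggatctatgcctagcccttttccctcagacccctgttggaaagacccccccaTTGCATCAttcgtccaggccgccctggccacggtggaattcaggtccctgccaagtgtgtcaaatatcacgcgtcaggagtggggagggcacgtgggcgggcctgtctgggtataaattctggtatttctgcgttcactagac
Trib3, chr3:161275534-161275783, minus strand: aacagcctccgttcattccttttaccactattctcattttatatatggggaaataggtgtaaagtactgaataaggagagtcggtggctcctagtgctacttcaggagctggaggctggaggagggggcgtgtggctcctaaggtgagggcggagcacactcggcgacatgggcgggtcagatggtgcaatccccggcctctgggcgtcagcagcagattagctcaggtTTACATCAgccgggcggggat
Chac1, chr3:126795881-126796130, plus strand: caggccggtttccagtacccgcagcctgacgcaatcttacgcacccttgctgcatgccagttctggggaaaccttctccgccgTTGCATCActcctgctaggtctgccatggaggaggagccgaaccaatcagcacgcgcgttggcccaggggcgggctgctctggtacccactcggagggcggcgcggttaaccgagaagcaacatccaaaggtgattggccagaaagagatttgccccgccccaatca

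Igfbp1 and Pck1 were lowest in replicate 5. Igfbp1, a binding protein of insulin-like growth factors, had 9.48, 9.44, 10.03, 8.64, 6.75 and 9.18 in replicates 1 to 6 (SD 1.15). The lowest of the 30 dosed livers had 7.88. Pck1, an enzyme of glucose production, had 11.40 in replicate 5 and 12.53 to 13.19 in the others. Most of their list, glucose production and glycogen, did not share this, with 7 of 13 members above their own mean in replicate 5. The list's median deviation there was 0.0036 and its mean deviation -0.25. Glucocorticoid response genes had their lowest median deviation in replicate 5 (-0.11). Of these, 5 of 13 exceeded their own mean there, and 3 did in replicate 1. Nr0b2, the bile acid-induced repressor SHP, was also lowest in replicate 5 (6.30) and highest in replicate 1 (9.35). Cyp7a1, which catalyses the first step from cholesterol to bile acids, was lowest in replicate 4 (8.62, others 9.60 to 10.46). Mt2A, a metallothionein, was low in replicate 6 (7.84, others 9.59 to 10.81). Sgk1, a glucocorticoid-induced kinase, was highest in replicates 3 (11.03) and 4 (11.36) and 9.69 to 10.25 in the others.

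Some genes of antigen presentation differed between animals. Of the 13 MHC genes above the signal limit used for ranking, 4 lay in the top 5% of SDs and 1, B2m (SD 0.046), in the lowest 5%. RT1-A, a class I heavy chain, had 6.15 in replicate 4 and 7.09 to 8.38 in the others. RT1-T24-3 and RT1-T24-4, further class I genes, were lowest in replicate 4 as well, at 5.99 and 7.50. RT1-Ba, a class II chain, was low in replicates 2 (8.44) and 3 (8.12) and 9.26 to 9.77 in the others. The RT1 genes are a family of near copies that differ between rats in sequence, so signal from a single probe set is uncertain.

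**Figure D3:**
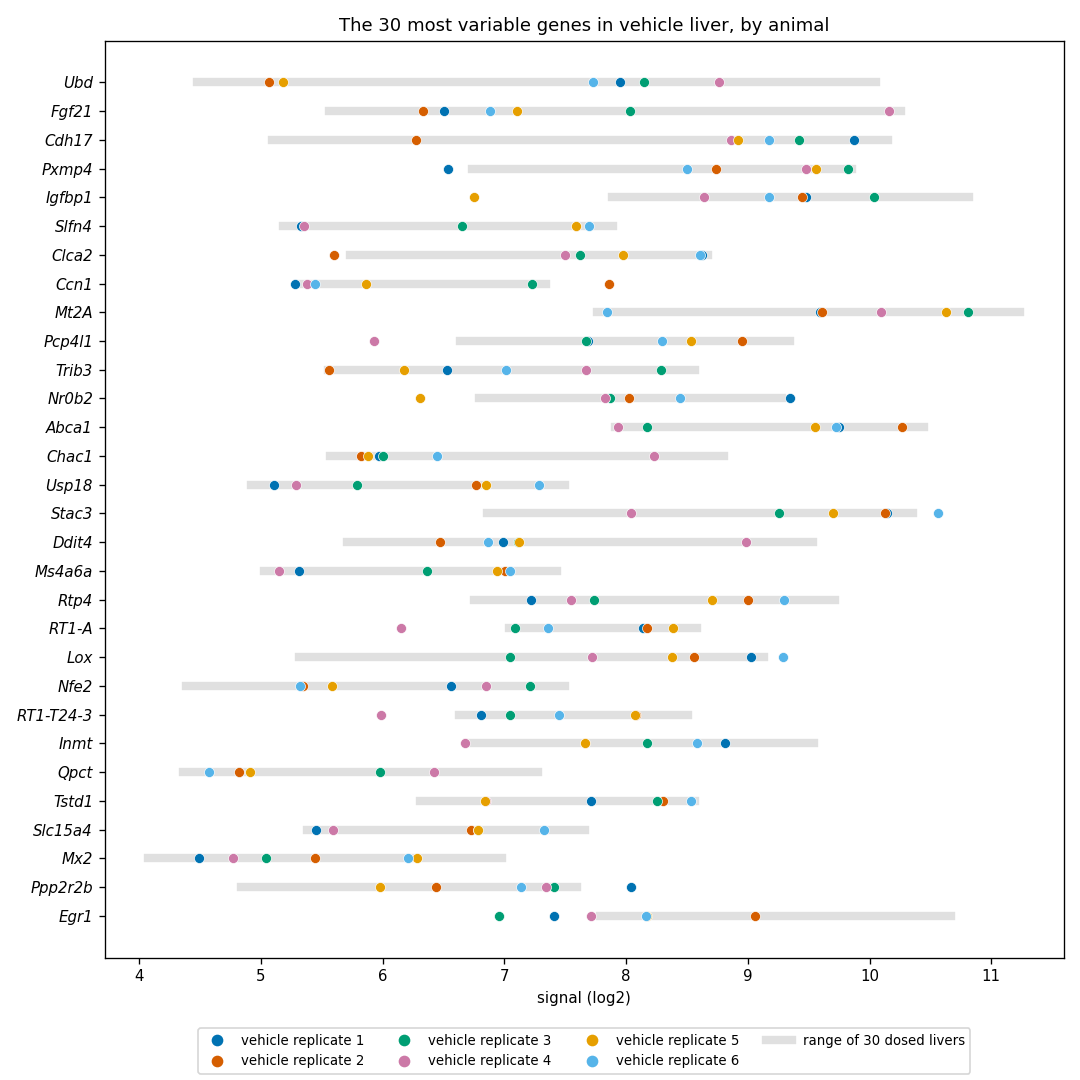
Signal (log2) of the 30 most variable genes in each of the 6 vehicle livers (coloured points), over the range of the 30 dosed livers (grey bars). Ubd splits into replicates 2 and 5 at 5.07 and 5.18 and 4 others at 7.73 to 8.76, and Fgf21 reaches 10.16 in replicate 4.

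Interferon response genes were spread widely between animals. Of the 17 measured members above the signal limit, 12 lay in the top 5% of SDs among the 9550 genes, and their median SD was 0.43 against 0.12 for all. Usp18, which removes the ubiquitin-like protein ISG15, had 5.11, 6.77, 5.79, 5.29, 6.85 and 7.29 in replicates 1 to 6. Mx2, an antiviral GTPase, had 4.49, 5.45, 5.04, 4.77, 6.28 and 6.21. Ifi27, the brightest member, had 11.79, 12.72, 12.24, 11.85, 12.65 and 12.70. In these genes replicates 2, 5 and 6 were higher than replicates 1, 3 and 4, without overlap. Of all 21 measured members, 0, 21, 3, 5, 18 and 17 exceeded their own vehicle mean in replicates 1 to 6, and their median deviation was -0.50, 0.39, -0.20, -0.32, 0.27 and 0.35. Ifit2 did not follow, with its highest value in replicate 4 (8.33). Without replicate 3, the count in replicate 4 was 2 in place of 5. Slfn4, Rtp4, Ms4a6a and Slc15a4, which were on no list, were lowest in replicates 1 and 4 too. They are named from the most variable genes for sharing this order, and that set as a whole did not share it. Ubd, the most variable gene, was high in replicates 1 (7.95) and 4 (8.76) and low in replicates 2 (5.07) and 5 (5.18). RT1-A was low in replicate 4 (6.15) but not in replicate 1 (8.14).

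Macrophage markers stood high and low in much the same animals. Of the 12 measured Kupffer cell and macrophage markers, 0, 11, 6, 0, 10 and 12 exceeded their own mean in replicates 1 to 6, and their mean signal was 8.17, 8.70, 8.40, 7.94, 8.57 and 8.60. Cd5l, a macrophage-secreted protein, had 8.42, 9.60, 9.29, 8.17, 9.33 and 9.36, and Clec4f ranged from 9.51 in replicate 4 to 10.42 in replicate 6. No marker of the list was near the bottom of the scale, and the dimmest, Folr2, averaged 5.93. The part of macrophage content in the interferon values was not tested. Cell cycle genes followed a similar order, with 3, 23, 11, 2, 15 and 25 of 28 members above their own mean. Cdk1, the mitotic kinase, had 5.75, 6.96, 6.26, 5.71, 6.39 and 7.11, while Pcna, a replication factor and the second brightest member, had an SD of 0.05. Markers of sinusoidal endothelium exceeded their mean in 5, 9, 4, 1, 6 and 4 of 10 cases.

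The letters GAAA followed by any 2 bases and again GAAA, the core of the interferon-stimulated response element, stood in 13 of 16 promoters of the interferon list (81.2%), in 350 of the 11700 promoters of named genes (2.99%) and in 3.77% of all promoters in the table, on either strand of 300 bases. Matches are in capitals in the sequences shown. The list was drawn up from genes known to respond to interferon, so the share describes the list. Promoters of Oas1a, Irf7 and Rsad2 are shown, chosen after their values were seen; Oas1a holds overlapping matches from 41 and 35 bases before the start, Irf7 1 from 69 and Rsad2 1 from 147, the last 2 on the opposite strand. Oas1a had 4.28, 5.88, 4.83, 4.44, 5.47 and 5.75 and Irf7 6.25, 7.60, 6.61, 6.53, 7.52 and 7.77 in replicates 1 to 6.
Oas1a, chr12:41330216-41330465, plus strand: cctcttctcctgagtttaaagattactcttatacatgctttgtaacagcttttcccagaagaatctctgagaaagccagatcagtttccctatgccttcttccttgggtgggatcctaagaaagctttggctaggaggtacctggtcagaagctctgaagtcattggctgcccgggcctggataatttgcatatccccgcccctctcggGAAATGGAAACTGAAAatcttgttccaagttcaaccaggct
Irf7, chr1:205800024-205800273, minus strand: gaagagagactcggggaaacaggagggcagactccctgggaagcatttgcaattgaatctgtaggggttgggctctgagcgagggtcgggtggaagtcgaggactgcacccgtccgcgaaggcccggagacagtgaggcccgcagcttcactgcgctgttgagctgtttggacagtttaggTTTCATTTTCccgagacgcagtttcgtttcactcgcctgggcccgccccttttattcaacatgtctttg
Rsad2, chr6:48788121-48788370, minus strand: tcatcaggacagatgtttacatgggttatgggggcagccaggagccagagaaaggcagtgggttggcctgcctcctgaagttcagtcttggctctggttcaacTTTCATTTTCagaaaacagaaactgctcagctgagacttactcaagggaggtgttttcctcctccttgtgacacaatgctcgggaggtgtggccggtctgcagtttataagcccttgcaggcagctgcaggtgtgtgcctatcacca

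Cholesterol synthesis genes, which SREBP2 switches on when sterols are low, formed another group. In replicate 3 all 20 measured members exceeded their own mean, by a median of 0.39, while in replicate 2 only 1 did and in replicate 6 only 2. The counts in replicates 1, 4 and 5 were 17, 5 and 12, and without replicate 3 that of replicate 4 was 9. Insig1, the sterol-responsive anchor of SREBP, had 11.55, 10.39, 11.61, 11.58, 10.49 and 11.18. Mvd, of the mevalonate pathway, had 8.32, 7.70, 8.60, 7.98, 8.26 and 7.46. Of the 20 members, 8 lay in the top 5% of SDs. Replicate 3 is also the array with the widest quartiles (3.62 and 7.13), and the part of that in these values was not tested.

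Genes of the endoplasmic reticulum chaperone system were high in replicate 1, where 15 of 20 members exceeded their mean. Creld2, a secretory chaperone, had 10.37 there and 9.03 to 9.33 in the others, and Hspa5, the chaperone BiP, had 12.67 there and 12.14 to 12.47 in the others. Ribosomal protein genes moved together by small amounts. In replicate 6 only 3 of 40 exceeded their own mean (median deviation -0.12), and in replicates 4 and 5 each 37 did (0.06 and 0.07). Of all 14217 genes 6431 exceeded their own mean in replicate 6 and 7464 in replicate 4.

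**Figure D4:**
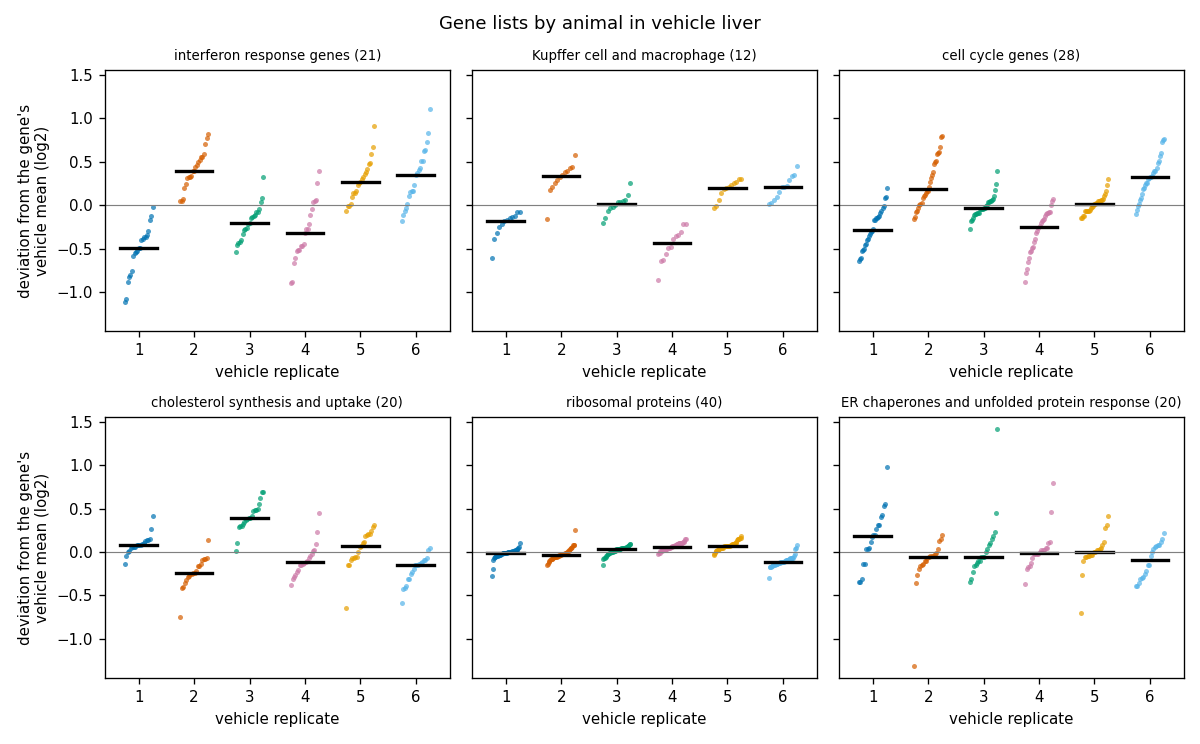
Deviation of each list member's signal from its own vehicle mean (log2), by vehicle replicate, with 1 point per gene and a black bar at the median. Interferon genes have medians from -0.50 in replicate 1 to 0.39 in replicate 2, and cholesterol synthesis genes reach 0.39 in replicate 3.

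Other lists held variable members too. Of immediate early genes above the signal limit 7 of 14 lay in the top 5% of SDs, among them Egr1 (6.96 to 9.06) and Myc (6.46 to 8.00), both highest in replicate 2. Of glucocorticoid response genes it was 7 of 13, and of growth factor and hormone genes 9 of 25. Per1, a clock gene that glucocorticoids induce, varied little (SD 0.07). Among liver transcription factors, Nr1i3, the xenobiotic receptor CAR, was low in replicate 4 (6.96, others 8.19 to 8.84) and Onecut1 in replicate 2 (8.33, others 9.57 to 10.06). Among P450 enzymes, Cyp3a9 ranged from 6.88 in replicate 2 to 8.68 in replicate 6. None of the genes of oxidative phosphorylation (0 of 40), of ribosomal proteins (0 of 37), of the proteasome (0 of 30) or of the urea cycle (0 of 11) lay in that top 5%. It holds 478 of all 9550 genes above the limit, so counts of 0 in lists this short are near that share. Of the 16 plasma carriers above the limit, 1 lay in the top 5% (Serpina7, 9.61 to 10.54), and 11 lay in the lowest 5%. The processing may hold the spread of the brightest genes small, which was not tested.

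The least variable genes were of several kinds. Of the 30, 9 were among the 30 brightest, namely Alb, Gc, Apoh, Apoc3, Hp, Fgg, Mgst1, Rbp4 and Ttr. Mitochondrial genes were Sdhd (11.78 to 11.81), Hibadh, an enzyme of valine breakdown (12.51 to 12.54), Ndufab1, Atp5mpl, Mtch2 and Etfa. Tmem179b, a transmembrane protein, had 9.05 to 9.07 in all 6 livers (SD 0.0099). The others included the splicing factor Srrm1, the RNA-binding protein Pcbp1, the polymerase subunit Pole4, the phosphatase Dusp3 and the microtubule protein Map4. The 30th gene had an SD of 0.0260 and the 31st, Got2, one of 0.0263.

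Most of the genes with extreme spread in vehicle livers were extreme in the dosed livers too. All 30 of the most variable genes lay above the 95th percentile of the dosed SD (0.30), and 20 of them were in the top 5% of SDs in each of the 5 dose groups. Their median SD was 0.90 in vehicle and 0.76 in dosed livers, and 25 of 30 had the smaller SD in dosed livers. Of the 30 least variable, 19 lay below the 5th percentile of the dosed SD (0.07), and 27 had the larger SD in dosed livers, with medians of 0.02 in vehicle and 0.06 in dosed livers. The vehicle SDs had chosen the genes, so neither shift carries a test. Atg2b, an autophagy protein, had a vehicle SD of 0.02 and a dosed SD of 0.20. Of the 17 interferon genes above the limit, 15 lay in the top 5% of dosed SDs, with a median of 0.46. Of immediate early genes 9 of 14 did, and of glucocorticoid response genes 8 of 13. Cholesterol synthesis genes did so less often, 3 of 20 against 8 in vehicle livers. Endoplasmic reticulum chaperone genes did too, 2 of 20 against 5.

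**Figure D5:**
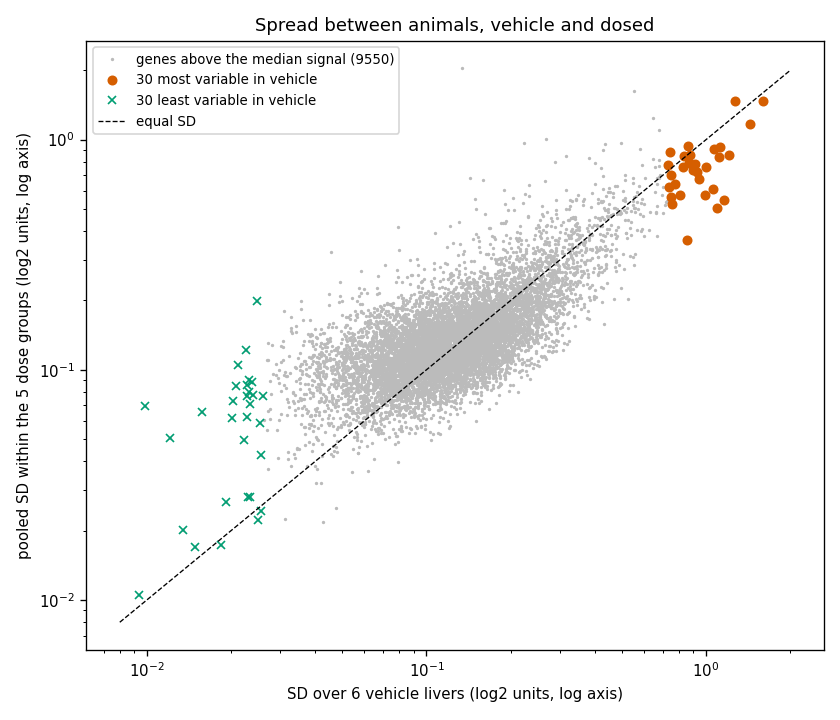
Pooled SD within the 5 dose groups against the SD over the 6 vehicle livers (both log axes, log2 units), for the 9550 genes above the signal limit, with the line of equal SD. All 30 of the most variable genes lie above a dosed SD of 0.30, and 27 of the 30 least variable lie above the line.

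No probe set passed a test of vehicle against the dosed livers as a whole. With limma, 0 of 31042 probe sets (0.0%) passed an FDR of 5% between vehicle and the mean of the 5 dose groups, with 2122 at an unadjusted p under 0.05 (6.84%) and a smallest adjusted p of 0.276. This contrast averages over doses, so a change at 1 dose is diluted. Without replicate 6 of the 0.54 mg/kg group, 1 probe set passed, that of Ugt2b1, a glucuronosyltransferase, which was 0.47 ± 0.07 (SE) lower in vehicle (limma adjusted p = 0.00379); with all samples the difference was 0.43 ± 0.10 (adjusted p = 0.301). The spread between animals, tested with limma on absolute deviations from the group median, also differed for 0 probe sets (0.0%), with 932 at an unadjusted p under 0.05 (3.00%) and a smallest adjusted p of 0.208. Among the 30 most variable genes, the smallest adjusted p was 0.499 for the level. In data simulated for these comparisons, the spread test recovered 57% of probe sets with a 4-fold larger SD, so differences of that size can be missed with 6 animals.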

How the data were processed

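The deposited values are the authors' log2 signals of rat Affymetrix 3' expression arrays, 1 per probe set and sample. The submitters' processing notes name RMA and the affy package, with versions not given in the sources used here. RNA had an integrity number of at least 7.0, per the labels' protocols. No raw intensities were used to check that the log base is 2.

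The table held 31099 probe sets. The 57 controls were left out. A single symbol was given for 20826 of the others, several for 436 and none for 9780, and 20758 probe sets matched RefSeq by Entrez ID (names only). Genes, lists and members were chosen with earlier results of these data known. Of 56 lists, those the results turn on are described. The naming rule took the 30 brightest, most and least variable genes, plus Y-linked genes. Per list it took the 4 brightest, the 2 most variable above the median signal and the dimmest. Genes outside it are Oas1a, Irf7, Rsad2, Abhd3, Selenop, Serpina6, Got2 and Ugt2b1, chosen after their values were seen. Asns and Atf5 are named only for their promoters.

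Tests used limma 3.58.1 in R 4.3.3, with 6 group means over 36 samples, two-sided, with Benjamini-Hochberg adjustment over 31042 probe sets. In simulated data the level test recovered 96% of shifts of 0.5 (2.54% of calls false), and the spread test 57% of 4-fold SDs (8.06% false). The number of arrays limits the precision.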

Additional observations from a re-analysis of the deposited data

Results flagged for a closer look

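A check for 1 sample far from the other 5 was applied to 191 named genes and 7 list means, as the gap to the nearest other sample divided by the whole range, against Dixon's 95% critical value for 6 samples. Chance gives about 1 in 20; 20 of the genes (10.5%) passed, against 6.15% of all genes. Many of the named genes were chosen for their spread, so the shares are not comparable.

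Vehicle replicate 4 stood apart in Abhd3 (0.925 of the range), Alb (0.789), Ddit4 (0.743), Chac1 (0.742), Nr1i3 (0.658), Got2 (0.644) and RT1-T24-4 (0.640). It was the highest sample in Abhd3, Alb, Ddit4, Chac1 and Got2 and the lowest in Nr1i3 and RT1-T24-4, and Alb differed by only 0.026 over all 6 samples. Replicate 2 stood apart in Clock (0.778), Cdh17 (0.717), Onecut1 (0.714), Rgn (0.701), Reg3b (0.693), Clca2 (0.629) and Apoc1 (0.6254). It was lowest in Clock, Cdh17, Onecut1 and Clca2 and highest in Rgn, Reg3b and Apoc1.

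Replicate 1 was high in Creld2 (0.773) and A1bg (0.626). Replicate 6 was high in Cps1 (0.715) and low in Itih3 (0.673). Replicate 3 was high in Hnf4a (0.681) and in the mean of the hepatocyte markers (0.747), and replicate 5 was low in Pck1 (0.632). The hepatocyte markers in replicate 3 had a mean deviation of 0.11 but a median of 0.03, with 9 of 13 above their own mean. What sets these samples apart was not tested.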

How the results depend on the processing

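The count of probe sets that differed between vehicle and the dosed groups was 0 under bright probe sets only, median-centred arrays, array quality weights and the 3 lowest doses, for level and for spread, and 0 for spread under deviations from the group mean. Leaving out single samples gave 0 to 1 for level and 0 to 0 for spread. With the replicate number as a block the counts were 0 and 0. The 90 same-numbered pairs had correlations from -0.260 to 0.233, and 24 of them exceeded 0.1. Their median was 0.013, against -0.0044 for pairs with unlike numbers, and 5 of 36 samples correlated best with their own number. These values show no clear pairing by number but cannot exclude it.

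Of the 30 brightest genes, 23 to 30 stayed in the ranking under all alternatives. Of the 30 most variable, 15 stayed with the median absolute deviation, 19 among probe sets above the upper quartile, 14 with the dosed SD, 20 to 26 when 1 sample was left out, and 23 to 29 otherwise. The 30 least variable are less stable: 12 stayed with median-centred arrays, 17 with the mean of all probe sets of a gene, 6 with the median absolute deviation, 19 with the SD relative to genes of like brightness, 10 with the dosed SD and 12 to 16 when 1 sample was left out. Lists with a median above the 75th percentile numbered 37, and 36 with the mean of all probe sets, which moved single lists by -25.8 to 7.28 points: Y-linked genes from 73.1 to 47.4, glucocorticoid response genes from 84.1 to 75.2 and circadian genes from 62.3 to 54.0. Counts per animal by median-centred arrays and without replicate 3 were alternatives added after seeing the data. The 6 animals, single probe sets and bulk tissue limit these results.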
